A study of Mus musculus with 12 samples.

Results

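The integrated stress response and the unfolded protein response were followed through 10 genes: Atf4, Ddit3, Trib3, Chac1, Asns, Psat1, Sesn2, Slc3a2, Hspa5 and Xbp1. They were taken by symbol from the 53801 genes of the table. Each had 1 row, and all 10 of 10 passed the filter on low counts. Bulk RNA sequencing was done on macrophages sorted from mouse hearts, all after ligation of the left anterior descending coronary artery, so no group is without infarction. The 4 groups of 3 libraries were Bhlhe41dTomato-Cre+/- CCR2low, Bhlhe41dTomato-Cre+/- CCR2hi, WT CCR2low and WT CCR2hi. The Bhlhe41dTomato-Cre+/- animals, here Bhlhe41Cre, are heterozygous for an insertion of dTomato and Cre in Bhlhe41, a gene for a transcriptional repressor. CCR2 is the receptor for the monocyte attractant CCL2, and low or high CCR2 was the sort gate. The labels give C57BL/6N for all groups; age, the time after infarction and the number of animals in a library were not stated there.

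ATF4 is the transcription factor at the centre of the integrated stress response. Kinases that sense lack of amino acids, heme deficiency, viral RNA or misfolded protein in the endoplasmic reticulum (ER) phosphorylate eIF2alpha, which lowers general translation while it raises translation of the Atf4 message. ATF4 then switches on genes of amino acid supply, such as Asns and Psat1, and regulators such as Ddit3 and Trib3. The unfolded protein response also has an ATF6 arm and an IRE1 arm, which induce the chaperone BiP (Hspa5) and splice the Xbp1 message. Because ATF4 protein is set largely by translation and XBP1 by splicing, gene-level RNA counts do not measure the activity of either factor.

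All 10 promoters were found in RefSeq's table (GRCm38.p6), and the 250 bases before each start were searched on both strands for 3 published elements. They are the amino acid response element that ATF4 binds, searched as TGATGNAA, the ER stress element, CCAAT and CCACG with any 9 bases between them, and the XBP1 element TGACGTGG. The stretches with a match are shown because they are the places in these genes where the letters of such an element stand; capitals mark the match.
Chac1 (chr2:119351009-119351096, plus strand): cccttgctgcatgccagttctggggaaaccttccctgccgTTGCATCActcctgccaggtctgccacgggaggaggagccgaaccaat
Asns (chr6:7693214-7693243, minus strand): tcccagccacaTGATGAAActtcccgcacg
Hspa5 (chr2:34772020-34772049, plus strand): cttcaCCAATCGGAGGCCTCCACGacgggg

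The first element stood in 2 of the 10 genes, in Chac1 at bases -193 to -186 from the start, where it reads on the minus strand, and in Asns at bases -23 to -16. It was in 3.45% of the 32851 promoter windows of the same length. Hspa5 held the ER stress element at bases -65 to -47, and 0.113% of all windows held it. No member's window held the XBP1 element, which was in 0.563% of windows. Starts differ between annotations: in GENCODE M21 the Asns and Hspa5 genes begin further upstream, so these 2 matches lie inside their transcribed regions there, and only 30 bases are shown. A match is a run of letters and no record of binding, and the elements that ATF4 uses vary more than these letters allow.

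Before the genes themselves, the libraries were checked. Total counts, in units of 1000000 (M), ran from 18.78 to 19.31 M in Bhlhe41Cre CCR2low, 17.7 to 19.45 M in Bhlhe41Cre CCR2hi, 19.77 to 20.83 M in CCR2low of WT and 18.64 to 19.79 M in CCR2hi of WT. Bhlhe41 itself had 23.9, 26.01 and 13.3 CPM (counts scaled to 1000000 a library) in Bhlhe41Cre CCR2low and 7.67, 9.45 and 6.81 CPM in Bhlhe41Cre CCR2hi, against 41.2, 32.3 and 34.2 CPM in CCR2low of WT and 45.4, 39.7 and 27.1 CPM in CCR2hi of WT. It was lower in Bhlhe41Cre than in WT in both gates, with a log2 fold change of -0.77 ± 0.24 (SE, adjusted p = 0.0221) in CCR2low and -2.23 ± 0.26 (SE, adjusted p = 5.14e-05) in CCR2hi. Ccr2 RNA averaged 76.8 ± 18.3 CPM in Bhlhe41Cre CCR2low and 31.5 ± 12.03 CPM in WT CCR2low. In the other gate it averaged 77.3 ± 10.5 CPM in Bhlhe41Cre CCR2hi and 65.6 ± 22.4 CPM in WT CCR2hi (SD, n = 3). The WT means of the gates thus lay further apart than those of Bhlhe41Cre, which differed by less than 1 SD. By edgeR's test this difference between genotypes was 1.05 ± 0.42 (SE, adjusted p = 0.118), not called. Bhlhe41Cre over WT, Ccr2 was higher in CCR2low, at 1.28 ± 0.30 (SE, adjusted p = 0.00439). In CCR2hi it was 0.24 ± 0.30 (SE, adjusted p = 0.570), not called. The labels give all animals as male, yet Xist, an RNA made in female cells, had 1403 to 3699 counts in the 6 Bhlhe41Cre libraries and 0 to 3 in WT. In the pair of Bhlhe41Cre libraries numbered 3, the counts of 4 Y-linked genes summed to 105 and 182, against 668 to 1741 in WT. In the Bhlhe41Cre libraries numbered 1 and 2 these sums were 709 to 1446, beside 1589 to 3699 Xist counts. Those libraries thus held both Xist and Y-linked RNA at length. Genotype and the sex of the animals therefore cannot be told apart; none of the 10 genes is on a sex chromosome.

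The marker lists showed that the sorted fractions were not equally rich in macrophages. Counts of 17 macrophage identity genes took 2.97 to 3.28% of a library in Bhlhe41Cre CCR2low, 0.809 to 1.05% in Bhlhe41Cre CCR2hi, 3.27 to 3.57% in CCR2low of WT and 0.230 to 0.543% in CCR2hi of WT. The 16 fibroblast genes took 0.526 to 0.996% in Bhlhe41Cre CCR2low, 5.28 to 6.62% in Bhlhe41Cre CCR2hi, 0.980 to 1.36% in CCR2low of WT and 9.99 to 10.9% in CCR2hi of WT. All 17 macrophage genes were detected in every group, yet CCR2hi libraries of both genotypes held more fibroblast than macrophage marker counts. Immediate early genes, which also rise during tissue dissociation, took 0.675 to 0.721% in Bhlhe41Cre CCR2low, 1.08 to 1.34% in Bhlhe41Cre CCR2hi, 1.96 to 2.13% in CCR2low of WT and 1.505 to 2.42% in CCR2hi of WT. In such bulk samples, fewer cells of a type and less RNA per cell cannot be told apart. The part of these differences in the results below was not tested by a separation of cell types; values scaled to the macrophage genes are given beside the comparisons.

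**Figure D1:**
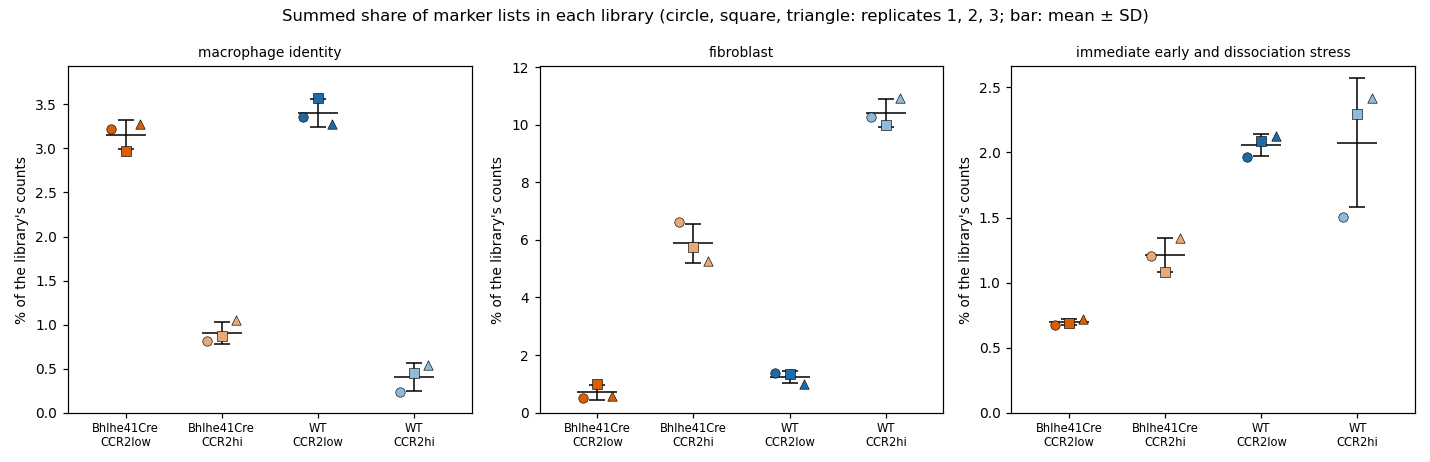
Share of each library's counts (y axis, %) taken by 17 macrophage identity, 16 fibroblast and 14 immediate early and dissociation genes in the 4 groups (x axis); symbols are libraries and bars the mean ± SD of 3. Macrophage shares were 2.97 to 3.28% in Bhlhe41Cre CCR2low and 3.27 to 3.57% in WT CCR2low, and fibroblast shares were highest in WT CCR2hi.

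Levels of different genes were compared in the deposited TPM (transcripts per 1000000), which is corrected for gene length. Hspa5 was the most abundant of the 10 in every group, with mean TPM of 1337 ± 267 in Bhlhe41Cre CCR2low, 1338 ± 153 in Bhlhe41Cre CCR2hi, 595 ± 85.4 in CCR2low of WT and 1196 ± 202 in CCR2hi of WT (SD, n = 3). Slc3a2 and Atf4 followed in every group, then Xbp1 and Ddit3. Slc3a2 stood above Atf4 in both CCR2low groups and Atf4 above Slc3a2 in both CCR2hi groups. Chac1 and Trib3 were the lowest in every group, at 2.59 ± 1.36 and 2.93 ± 0.945 TPM in Bhlhe41Cre CCR2low, 10.9 ± 4.77 and 7.60 ± 1.55 TPM in Bhlhe41Cre CCR2hi, 1.097 ± 0.800 and 2.55 ± 0.833 TPM in CCR2low of WT and 1.83 ± 0.160 and 4.74 ± 1.07 TPM in CCR2hi of WT. The lowest count behind any member's value was 14, of Chac1. Below, a gene's level across groups is in CPM (counts per 1000000 on library sizes scaled by TMM, the trimmed mean of M-values), listed for replicates 1, 2 and 3. Changes are log2 fold changes with edgeR's quasi-likelihood test, and a gene is called at an adjusted p (Benjamini-Hochberg over 14964 genes) under 0.05.

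**Figure D2:**
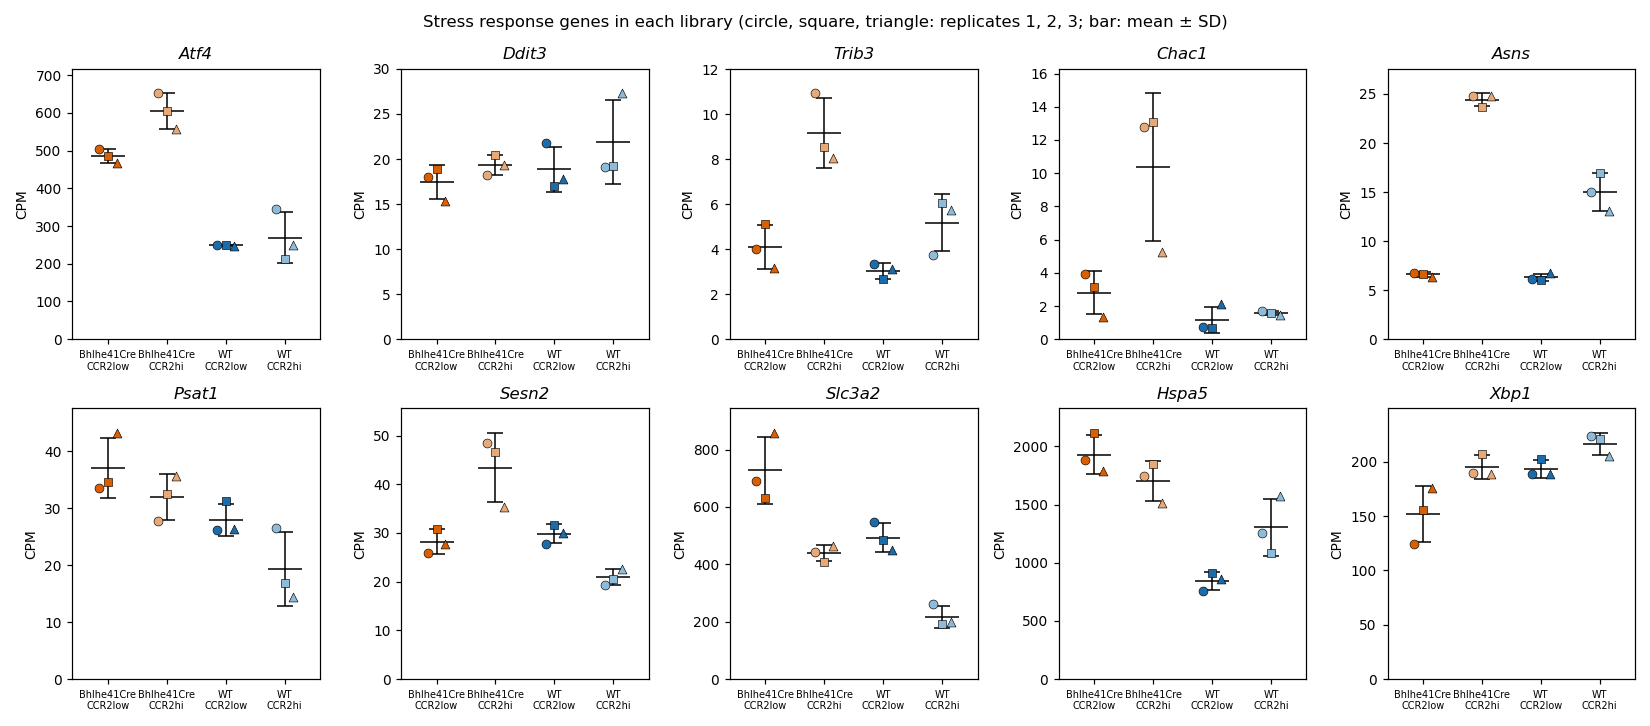
CPM (y axis, from 0) of each of the 10 genes in every library of the 4 groups (x axis); circle, square and triangle are replicates 1, 2 and 3, and bars the mean ± SD. Atf4 lies above 465 CPM in each Bhlhe41Cre library and below 346 CPM in each WT library, while Ddit3 overlaps between neighbouring groups.

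Atf4 (chromosome 15:80255184-80257541, GRCm38), the transcription factor that gives the response its name, was higher in Bhlhe41Cre than in WT in both gates. It stood at 504, 486 and 466 CPM in Bhlhe41Cre CCR2low, 652, 605 and 558 CPM in Bhlhe41Cre CCR2hi, against 250.2, 248 and 248 CPM in CCR2low of WT and 345, 213 and 249 CPM in CCR2hi of WT. Every Bhlhe41Cre library lay above every WT library, and the WT groups overlapped. The log2 fold change of Bhlhe41Cre over WT was 0.96 ± 0.16 (SE, adjusted p = 0.000435) in CCR2low, a fold of 1.95, and 1.17 ± 0.16 (SE, adjusted p = 0.000145) in CCR2hi, a fold of 2.25. Between the gates Atf4 was not called in Bhlhe41Cre, at -0.32 ± 0.16 (SE, adjusted p = 0.0992) for CCR2low over CCR2hi, although the libraries did not overlap, nor in WT, at -0.11 ± 0.16 (SE, adjusted p = 0.547). The high WT value was replicate 1 of WT CCR2hi; leaving out each library in turn gave 1.03 to 1.38 in CCR2hi and 0.94 to 1.16 in CCR2low, all called. Scaled to the macrophage genes, the Atf4 difference kept its size in CCR2low (1.06) with an adjusted p of 0.0753, and in CCR2hi it was -0.17 with an adjusted p of 0.680.

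Ddit3 (chromosome 10:127290774-127296288) encodes CHOP, a partner of ATF4 best known for its part in death under lasting ER stress. Unlike Atf4, Ddit3 was called in none of the 5 comparisons. Its values were 17.99, 18.9 and 15.3 CPM in Bhlhe41Cre CCR2low, 18.2, 20.4 and 19.3 CPM in Bhlhe41Cre CCR2hi, against 21.7, 17.05 and 17.7 CPM in CCR2low of WT and 19.1, 19.3 and 27.3 CPM in CCR2hi of WT. All neighbouring groups overlapped, and the highest library was WT CCR2hi replicate 3. The log2 fold change of Bhlhe41Cre over WT was -0.11 ± 0.17 (SE, adjusted p = 0.608) in CCR2low and -0.18 ± 0.17 (SE, adjusted p = 0.428) in CCR2hi. CCR2low over CCR2hi it was -0.15 ± 0.17 (SE, adjusted p = 0.470) in Bhlhe41Cre and -0.22 ± 0.17 (SE, adjusted p = 0.274) in WT. Scaled to the macrophage genes, Ddit3 was lower in CCR2hi cells of Bhlhe41Cre than of WT (-1.36, adjusted p = 0.00115), which is about the shift of the median of all genes there (-1.26).

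Trib3 (chromosome 2:152337422-152344032), a pseudokinase that ATF4 and CHOP induce and that feeds back on them, was highest in the CCR2hi cells of Bhlhe41Cre. Its libraries read 4.02, 5.13 and 3.17 CPM in Bhlhe41Cre CCR2low, 10.9, 8.54 and 8.04 CPM in Bhlhe41Cre CCR2hi, against 3.35, 2.67 and 3.11 CPM in CCR2low of WT and 3.75, 6.04 and 5.76 CPM in CCR2hi of WT. The 3 Bhlhe41Cre CCR2hi libraries lay above all 9 others, while the other 3 groups overlapped with a neighbour. Bhlhe41Cre over WT, Trib3 changed by 0.82 ± 0.23 (SE, adjusted p = 0.0158) in CCR2hi and by 0.43 ± 0.25 (SE, adjusted p = 0.171) in CCR2low, of which only the first was called. It was lower in CCR2low than in CCR2hi in Bhlhe41Cre, at -1.16 ± 0.24 (SE, adjusted p = 0.000948), and in WT, at -0.77 ± 0.24 (SE, adjusted p = 0.0149). The WT difference lost its call without WT CCR2low replicate 2 (adjusted p = 0.0596), WT CCR2hi replicate 2 (0.0588) or WT CCR2hi replicate 3 (0.0510). The genotype difference in CCR2hi lost it without WT CCR2hi replicate 1 (0.0532) or Bhlhe41Cre CCR2hi replicate 1 (0.0806), and its sign turned when scaled to the macrophage genes (-0.29). This genotype call was also lost with limma on log2(TPM + 1) (adjusted p = 0.0758) and on log2(TPM + 0.1) (0.109).

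Chac1 (chromosome 2:119351229-119354381), a glutathione-degrading enzyme induced by ATF4 whose promoter stretch is shown above, had the largest genotype difference of the 10. It was at 3.91, 3.16 and 1.35 CPM in Bhlhe41Cre CCR2low, 12.8, 13.1 and 5.26 CPM in Bhlhe41Cre CCR2hi, against 0.746, 0.704 and 2.09 CPM in CCR2low of WT and 1.68, 1.58 and 1.48 CPM in CCR2hi of WT. In CCR2hi, every Bhlhe41Cre library lay above every WT library, and Bhlhe41Cre replicate 3 was the lowest of its group in both gates. The log2 fold change in CCR2hi was 2.72 ± 0.46 (SE, adjusted p = 0.000776), a fold of 6.57, and it stayed called when scaled to the macrophage genes, at 1.54 (adjusted p = 0.0169). In CCR2low it was 1.25 ± 0.49 (SE, adjusted p = 0.0551) and the groups overlapped through WT CCR2low replicate 3. Without that library the CCR2low value was 1.95 (adjusted p = 0.0114), and without Bhlhe41Cre CCR2low replicate 3 it was 1.73 (adjusted p = 0.0128). Chac1 was lower in CCR2low than in CCR2hi in Bhlhe41Cre, at -1.88 ± 0.44 (SE, adjusted p = 0.00262), and not called in WT, at -0.41 ± 0.51 (SE, adjusted p = 0.503). The difference between these 2 gate effects was -1.47 ± 0.67 (SE, adjusted p = 0.166) and not called.

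Sesn2 (chromosome 4:132492032-132510501), sestrin 2, restrains mTORC1 when leucine is short and is induced by ATF4. With TMM scaling its gate difference pointed in opposite directions in the 2 genotypes; scaled to the macrophage genes both were negative (-2.65 in Bhlhe41Cre and -2.80 in WT) and their difference was 0.15 (adjusted p = 0.780). The libraries gave 25.9, 30.9 and 27.8 CPM in Bhlhe41Cre CCR2low, 48.4, 46.5 and 35.3 CPM in Bhlhe41Cre CCR2hi, against 27.8, 31.7 and 29.99 CPM in CCR2low of WT and 19.4, 20.5 and 22.7 CPM in CCR2hi of WT. The 3 Bhlhe41Cre CCR2hi libraries were above all others, and the WT CCR2hi libraries below all others. Sesn2 was lower in CCR2low than in CCR2hi in Bhlhe41Cre, at -0.62 ± 0.14 (SE, adjusted p = 0.00212), and higher in WT, at 0.51 ± 0.14 (SE, adjusted p = 0.00695). The test of that difference between genotypes gave -1.14 ± 0.20 (SE, adjusted p = 0.00458). The WT value lost its call without WT CCR2hi replicate 1 (log2 0.26, adjusted p = 0.188) and without Bhlhe41Cre CCR2hi replicate 1, 2 or 3 (log2 0.31 each, adjusted p = 0.0824, 0.0975 and 0.05005), which shifts the TMM scale of all libraries. The WT call was also lost with limma on log2(TPM + 1), at 0.14 (adjusted p = 0.476), and on log2(TPM + 0.1), at 0.155 (0.474). In TPM the WT gates overlapped, at 10.4 to 12.9 in CCR2low and 10.3 to 11.4 in CCR2hi. Bhlhe41Cre over WT, Sesn2 was higher in CCR2hi, at 1.06 ± 0.14 (SE, adjusted p = 0.000152), and was -0.08 ± 0.14 (SE, adjusted p = 0.673) in CCR2low. The CCR2hi difference was -0.14 (adjusted p = 0.697) when scaled to the macrophage genes.

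Of the genes of amino acid supply, Asns (chromosome 6:7675169-7693254), asparagine synthetase and a textbook ATF4 target, followed the gate most closely. It measured 6.80, 6.65 and 6.35 CPM in Bhlhe41Cre CCR2low, 24.8, 23.6 and 24.8 CPM in Bhlhe41Cre CCR2hi, against 6.18, 6.04 and 6.73 CPM in CCR2low of WT and 15.04, 16.9 and 13.1 CPM in CCR2hi of WT. All CCR2low libraries lay below all CCR2hi libraries, and among CCR2hi libraries every Bhlhe41Cre value exceeded every WT value. The log2 fold change of CCR2low over CCR2hi was -1.88 ± 0.14 (SE, adjusted p = 2.38e-07) in Bhlhe41Cre and -1.25 ± 0.14 (SE, adjusted p = 4.21e-06) in WT. Asns was higher in Bhlhe41Cre than in WT in CCR2hi, at 0.70 ± 0.13 (SE, adjusted p = 0.00152), whereas the CCR2low value was 0.06 ± 0.14 (SE, adjusted p = 0.738). The gate differences differed between genotypes by -0.64 ± 0.19 (SE, adjusted p = 0.0470). That call was lost in 20 of 23 alternatives, among them a block for the replicate number within genotype (adjusted p = 0.0748), and its sign turned in 1 more, the scaling to macrophage genes (0.71). Scaled to the macrophage genes the genotype difference in CCR2hi was -0.55 (adjusted p = 0.129).

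Psat1 (chromosome 19:15904678-15947337) makes phosphoserine in serine synthesis. Its levels were 33.6, 34.6 and 43.2 CPM in Bhlhe41Cre CCR2low, 27.7, 32.5 and 35.7 CPM in Bhlhe41Cre CCR2hi, against 26.3, 31.2 and 26.3 CPM in CCR2low of WT and 26.6, 16.9 and 14.4 CPM in CCR2hi of WT. In CCR2hi the Bhlhe41Cre libraries lay above the WT libraries by a narrow margin, since WT replicate 1 was close to the lowest of them, and in CCR2low they were also above. The log2 fold change of Bhlhe41Cre over WT was 0.73 ± 0.21 (SE, adjusted p = 0.0162) in CCR2hi, called, and 0.41 ± 0.20 (SE, adjusted p = 0.120) in CCR2low, not called. Scaled to the macrophage genes the CCR2hi value turned to -0.67 (adjusted p = 0.126). The CCR2hi call was lost without WT CCR2hi replicate 2 (adjusted p = 0.0693) or 3 (0.0685), and without Bhlhe41Cre CCR2hi replicate 2 (0.0516) or 3 (0.0607). In WT, Psat1 was higher in CCR2low than in CCR2hi by 0.53 ± 0.21 (SE, adjusted p = 0.0382), although the 2 groups overlapped. That call was lost in 14 of 24 alternatives and turned in sign in 1 more. In Bhlhe41Cre the gate difference was 0.22 ± 0.20 (SE, adjusted p = 0.391).

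Slc3a2 (chromosome 19:8706882-8723369) encodes the heavy chain (CD98) that carries amino acid exchangers such as the cystine transporter Slc7a11 and the leucine transporter Slc7a5 to the cell surface. It was higher in CCR2low than in CCR2hi in both genotypes and higher in Bhlhe41Cre than in WT in both gates. Its values were 692, 633 and 858 CPM in Bhlhe41Cre CCR2low, 445, 409 and 464 CPM in Bhlhe41Cre CCR2hi, against 546, 485 and 449 CPM in CCR2low of WT and 262, 191 and 198 CPM in CCR2hi of WT. Every Bhlhe41Cre library exceeded every WT library of its gate, and Bhlhe41Cre CCR2hi overlapped with WT CCR2low. The Bhlhe41Cre over WT difference was 0.56 ± 0.16 (SE, adjusted p = 0.0114) in CCR2low and 1.02 ± 0.16 (SE, adjusted p = 0.000405) in CCR2hi. The CCR2low over CCR2hi difference was 0.73 ± 0.16 (SE, adjusted p = 0.00141) in Bhlhe41Cre and 1.19 ± 0.16 (SE, adjusted p = 2.36e-05) in WT. This was the only one of the 10 to be called in all 4 of these comparisons; scaled to the macrophage genes, its gate differences turned to -1.29 and -2.25, smaller falls than the medians of all genes (-2.02 and -3.33), and its genotype difference was 0.64 (adjusted p = 0.256) in CCR2low and -0.31 (0.425) in CCR2hi.

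Hspa5 (chromosome 2:34771970-34777547) encodes BiP, the main HSP70 chaperone of the ER, and its promoter held the ER stress element shown above. It was lowest in WT CCR2low. The libraries stood at 1886, 2114 and 1785 CPM in Bhlhe41Cre CCR2low, 1742, 1846 and 1512 CPM in Bhlhe41Cre CCR2hi, against 758, 915 and 857 CPM in CCR2low of WT and 1257, 1081 and 1572 CPM in CCR2hi of WT. The 3 WT CCR2low libraries lay below the 9 others, among which neighbouring groups overlapped. Hspa5 was higher in Bhlhe41Cre than in WT in CCR2low, by 1.19 ± 0.16 (SE, adjusted p = 0.000139) or a fold of 2.29. In CCR2hi the value was 0.38 ± 0.16 (SE, adjusted p = 0.0783). CCR2low over CCR2hi, it was lower in WT, at -0.63 ± 0.16 (SE, adjusted p = 0.00373), and not called in Bhlhe41Cre, at 0.18 ± 0.16 (SE, adjusted p = 0.350). The difference between the 2 was 0.81 ± 0.22 (SE, adjusted p = 0.0325); it lost its call without WT CCR2low replicate 2 (adjusted p = 0.0571), WT CCR2hi replicate 3 (0.0659), or Bhlhe41Cre CCR2low replicate 1 (0.0687) or 2 (0.0672). Hspa5 was the one member whose genotype difference in CCR2low was called also when scaled to the macrophage genes, at 1.29 (adjusted p = 0.0170).

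Xbp1 (chromosome 11:5520659-5525893) encodes the factor of the IRE1 arm. Total Xbp1 reads do not separate its spliced from its unspliced form. Its values were 125, 156 and 176 CPM in Bhlhe41Cre CCR2low, 189, 207 and 189 CPM in Bhlhe41Cre CCR2hi, against 189, 203 and 188 CPM in CCR2low of WT and 223, 221 and 205 CPM in CCR2hi of WT. The Bhlhe41Cre CCR2low libraries were below all others, and Bhlhe41Cre CCR2hi overlapped with both WT groups. The WT CCR2low libraries (188 to 203 CPM) lay below the WT CCR2hi libraries (205 to 223 CPM). Xbp1 was lower in CCR2low than in CCR2hi in Bhlhe41Cre, at -0.36 ± 0.13 (SE, adjusted p = 0.0296), and lower in Bhlhe41Cre than in WT in CCR2low, at -0.35 ± 0.13 (SE, adjusted p = 0.0431). The genotype call was lost in 18 of 23 alternatives, among them the removal of any single library of the 12 (adjusted p up to 0.371). The gate difference in Bhlhe41Cre was lost without Bhlhe41Cre CCR2low replicate 1 (0.138) or 2 (0.0536), Bhlhe41Cre CCR2hi replicate 1 (0.0526) or 2 (0.0899), or WT CCR2low replicate 1 (0.181). In WT the gate difference was -0.16 ± 0.13 (SE, adjusted p = 0.290), and the genotype difference in CCR2hi was -0.15 ± 0.13 (SE, adjusted p = 0.398). With limma on log2(TPM + 1) both were called, at -0.56 (adjusted p = 0.00078) and -0.37 (0.0228).

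**Figure D3:**
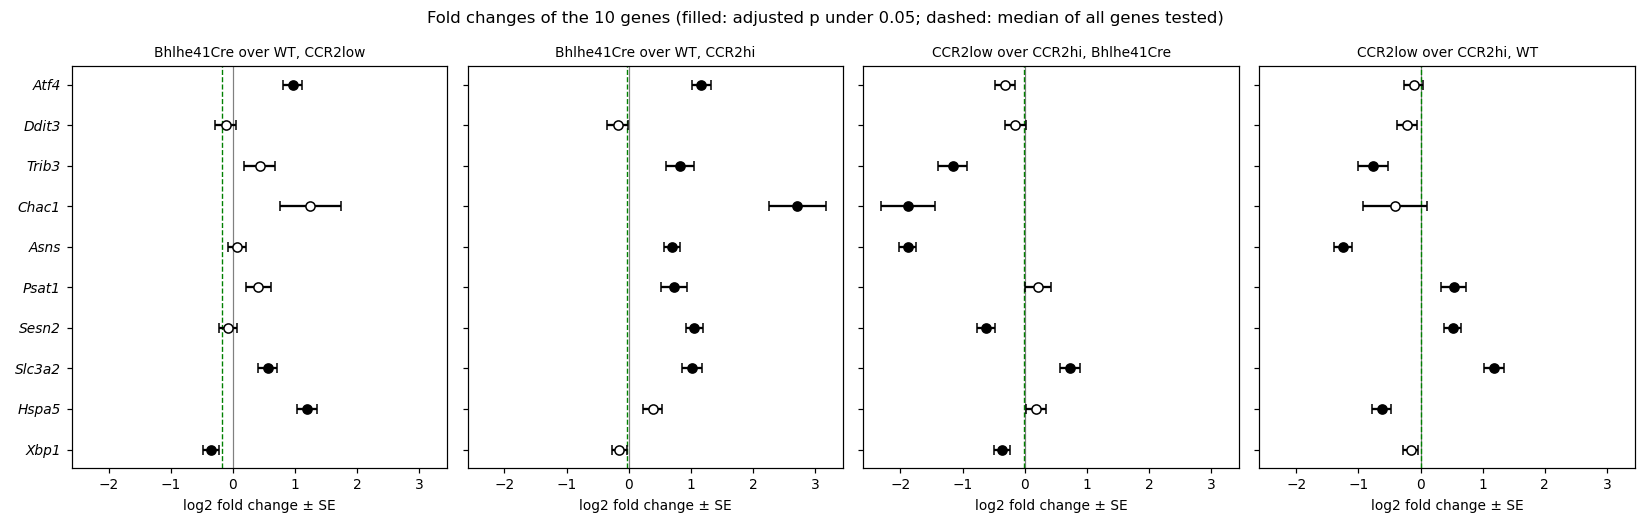
Log2 fold change ± SE (x axis) of the 10 genes (y axis) in 4 comparisons; filled points were called at an adjusted p under 0.05 and the dashed line is the median of all 14964 genes. With TMM scaling 7 genes were higher in Bhlhe41Cre than in WT among CCR2hi cells, against 16.2% of all genes. Scaled to macrophage genes, 1 was higher and 3 were lower, where the median of all genes was -1.26. That scaling called 11308 of all genes, of which 1.9% were higher. With TMM scaling Atf4 was to the right of 0 by 0.96 and 1.17 in the genotype comparisons.

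Among CCR2hi cells, 7 of the 10 genes were higher in Bhlhe41Cre than in WT and 0 lower, against a background of 16.2% higher and 15.9% lower (32.1% in either direction) among all 14964 genes. These were Atf4, Trib3, Chac1, Asns, Psat1, Sesn2 and Slc3a2, while Ddit3, Hspa5 and Xbp1 were not called. The same 7 were the ones whose groups did not overlap, against 22.9% of all genes not overlapping and higher and 25.6% not overlapping and lower (48.4% in all). The median over the 10 genes was 0.78 and over all genes -0.03. The members and lists were chosen with earlier results of these data known. Here and below, the shares of all genes therefore describe the counts and do not test them. In a scaling to the summed macrophage identity counts, which moved the median of all genes to -1.26, 1 gene (Chac1) was higher and 3 (Ddit3, Hspa5 and Xbp1) were lower. That scaling called 11308 of all genes, of which 1.9% were higher. In the same comparison the macrophage share was 0.809 to 1.05% in Bhlhe41Cre and 0.230 to 0.543% in WT, the fibroblast share 5.28 to 6.62% in Bhlhe41Cre and 9.99 to 10.9% in WT, and the neutrophil share 0.0822 to 0.125% in Bhlhe41Cre and 0.00378 to 0.00816% in WT; their part in the result was not tested. Leaving out both Bhlhe41Cre libraries numbered 3 gave 7 higher and 0 lower, with Atf4 at 1.22 (adjusted p = 0.000656) and Chac1 at 3.03 (0.000208). Limma on log2(TPM + 1) gave 6 higher and 1 lower, where 34.4% of the 4967 genes called were higher. In that fit Trib3 lost its call (adjusted p = 0.0758) and Xbp1 was called lower (-0.37, 0.0228).

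Among CCR2low cells, 3 of the 10 genes were higher in Bhlhe41Cre than in WT (Atf4, Slc3a2 and Hspa5) and 1 lower (Xbp1), against 16.4% higher and 26.7% lower of all genes (43% in either direction). The groups did not overlap for 5 genes, 4 higher and 1 lower, against 19.1% higher and 32.3% lower of all genes (51.4% in either direction). The median of the 10 was 0.42 and that of all genes -0.18. Macrophage shares were close here, at 2.97 to 3.28% in Bhlhe41Cre and 3.27 to 3.57% in WT, and the scaling to macrophage genes moved the median of all genes only to -0.09. In that scaling only Hspa5 was called, among 2144 called genes against 6441 with TMM, while the Atf4 value was 1.06. Fibroblast shares were 0.526 to 0.996% in Bhlhe41Cre and 0.980 to 1.36% in WT, and immediate early gene shares 0.675 to 0.721% in Bhlhe41Cre and 1.96 to 2.13% in WT. The adipocyte share was 0.0207 to 0.0290% in Bhlhe41Cre. In WT it was 0.0194, 0.0206 and 0.118% in replicates 1, 2 and 3, so only replicate 3 stood above Bhlhe41Cre. Mural genes took 0.0105 to 0.0206% in Bhlhe41Cre and 0.0443 to 0.0482% in WT, and 8 of 8 were called lower in Bhlhe41Cre with a median of -1.83. Cardiomyocyte genes took 0.00239 to 0.00318% in Bhlhe41Cre and 0.00912 to 0.0163% in WT, and 9 of 10 were called lower with a median of -2.23. Of the fibroblast genes 10 of 16 were lower, and of the adipocyte genes 4 of the 5 tested. Their part in the result was not tested. Without both Bhlhe41Cre libraries numbered 3, Chac1 was called as well (1.58, adjusted p = 0.00685), which gave 4 higher and 1 lower, with Atf4 at 0.99 (adjusted p = 0.00119) and Hspa5 at 1.25 (0.000292).

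**Figure D4:**
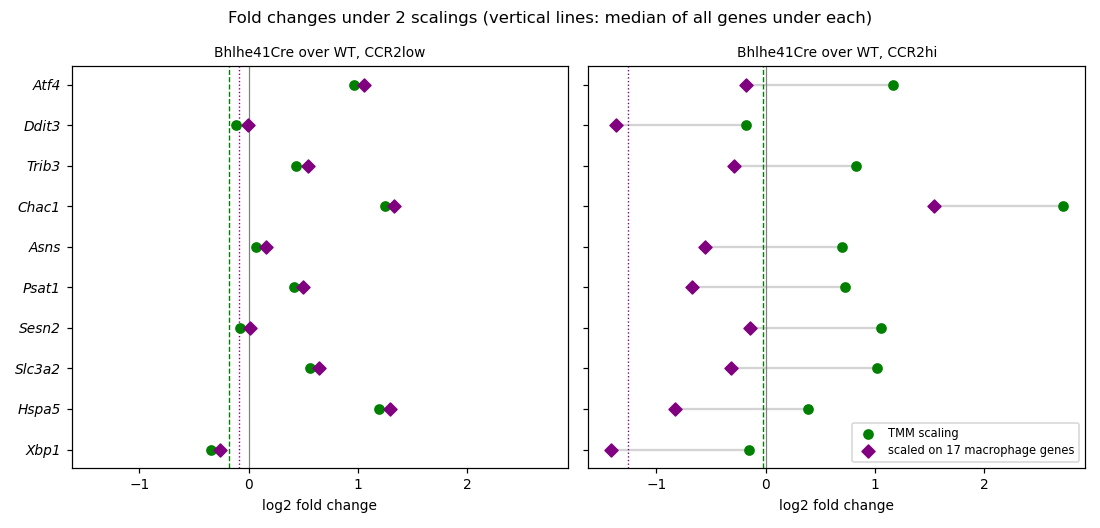
Log2 fold change of Bhlhe41Cre over WT (x axis) of the 10 genes (y axis) with TMM scaling (circles) and scaled on 17 macrophage identity genes (diamonds); vertical lines are the medians of all genes, dashed for TMM and dotted for the macrophage scaling. In CCR2low both scalings lie close together, and in CCR2hi the macrophage scaling moves each gene with the median of all genes, to -1.26, so that Atf4 lies at -0.17 and Chac1 at 1.54.

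Between the gates of Bhlhe41Cre, 1 gene was higher in CCR2low than in CCR2hi (Slc3a2) and 5 were lower (Trib3, Chac1, Asns, Sesn2 and Xbp1), against 24.9% higher and 29.1% lower of all genes. In WT, 3 were higher (Psat1, Sesn2 and Slc3a2) and 3 lower (Trib3, Asns and Hspa5), against 29.8% higher and 30% lower. Limma on log2(TPM + 1) gave 1 higher and 6 lower in WT, where 31.0% of the 8414 genes called were higher. With 54.1% of all genes called in either direction in Bhlhe41Cre and 59.8% in WT, the 6 of 10 members called in each genotype are near the background. The median of the 10 was -0.34 in Bhlhe41Cre and -0.19 in WT, and that of all genes -0.01 in Bhlhe41Cre and 0.01 in WT. Groups did not overlap for 7 members in Bhlhe41Cre, 1 higher and 6 lower, against 28.7% higher and 32.6% lower of all genes (61.3% in all). In WT they did not overlap for 6, 2 higher and 4 lower, against 33.7% higher and 32.2% lower of all genes (66% in all). When scaled to the macrophage genes, whose share was several times larger in CCR2low, all 10 genes were called lower in CCR2low in both genotypes, and the median of all genes moved to -2.02 in Bhlhe41Cre and -3.34 in WT. Of all 14964 genes, 13600 were then called in Bhlhe41Cre and 14364 in WT, of which 0.5 and 0.7% were higher. Without the Bhlhe41Cre libraries numbered 3 the Bhlhe41Cre counts were again 1 higher and 5 lower. For the difference between the 2 gate effects, 1 gene was called higher (Hspa5) and 2 lower (Asns and Sesn2), against 4.74% higher and 7.85% lower of all genes (12.6% in either direction), and only Sesn2 was called without the libraries numbered 3 (-1.26, adjusted p = 0.00287). The scaling to macrophage genes moved the median of these differences to 1.15, with Hspa5 at 2.12 and Sesn2 at 0.15. Each group enters 1 gate and 1 genotype comparison, so these comparisons share libraries.

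Beyond the 10 genes, the ER chaperones and disulfide isomerases were higher in Bhlhe41Cre than in WT among CCR2low cells. Of 16 such genes, 12 were called higher and 0 lower, against 16.4% higher and 26.7% lower of all genes, with a median of 0.56 against -0.18 over all genes. The count was 12 with DESeq2's size factors and with no scaling beyond library size, and 8 without both Bhlhe41Cre libraries numbered 3. It was 2 when scaled to the macrophage genes, where the median was 0.65 against -0.09 over all genes. There 2144 of all genes were called, of which 42.8% were higher. This list too was chosen with earlier results of these data known. Hsp90b1, the ER member of the HSP90 family, was at 726 ± 70.2 CPM in Bhlhe41Cre and 281 ± 15.2 CPM in WT (1.37 ± 0.16 (SE, adjusted p = 7.15e-05)), and Dnajb9, a BiP co-chaperone, at 132 ± 12.7 CPM in Bhlhe41Cre and 53.3 ± 4.30 CPM in WT (1.31 ± 0.16 (SE, adjusted p = 8.09e-05)). The 4 that were not called were Pdia4, P4hb, Sdf2l1 and Creld2, with log2 values of 0.16, 0.25, 0.20 and 0.24. Among CCR2hi cells, 3 of 16 were higher and 0 lower, near the 16.2% of all genes that were higher (0 higher and 13 lower when scaled to the macrophage genes, with a median of -1.06 against -1.26 over all genes), with Dnajb9 at 1.41 ± 0.16 (SE, adjusted p = 3.92e-05) and Ero1l, the oxidase that recharges disulfide isomerases, at 0.90 ± 0.16 (SE, adjusted p = 0.00117). In CCR2hi the macrophage scaling called 11308 of all genes, of which 1.9% were higher. Within WT, 2 of 16 were higher in CCR2low than in CCR2hi (Ero1lb at 1.37 and Sdf2l1 at 1.41). There 6 were lower (among them Hsp90b1 at -1.02 and Dnajc3 at -0.89), against 29.8% higher and 30% lower of all genes. Within Bhlhe41Cre 4 were higher and 1 lower (P4hb at -0.36), against 24.9% higher and 29.1% lower of all genes. With library size only these Bhlhe41Cre counts were 3 and 3. Scaled to the macrophage genes, 0 were higher and 14 lower in Bhlhe41Cre and 0 higher and 16 lower in WT. The medians of all genes there were -2.017 in Bhlhe41Cre and -3.335 in WT. Of the 13600 and 14364 genes called there, 0.5 and 0.7% were higher. The gate effects of 3 of the 16 differed between genotypes, all higher, including Hsp90b1 at 1.13 ± 0.23 (SE, adjusted p = 0.00799) and Dnajc3, an inhibitor of eIF2alpha kinases, at 1.05 ± 0.25 (SE, adjusted p = 0.0171). Of all genes, 4.74% were called higher and 7.85% lower in the interaction test. Scaled to the macrophage genes, 15 of 16 were called higher in this test, where the median of all genes was 1.15. In that setting 6130 of all 14964 genes were called, of which 98.3% were higher.

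**Figure D5:**
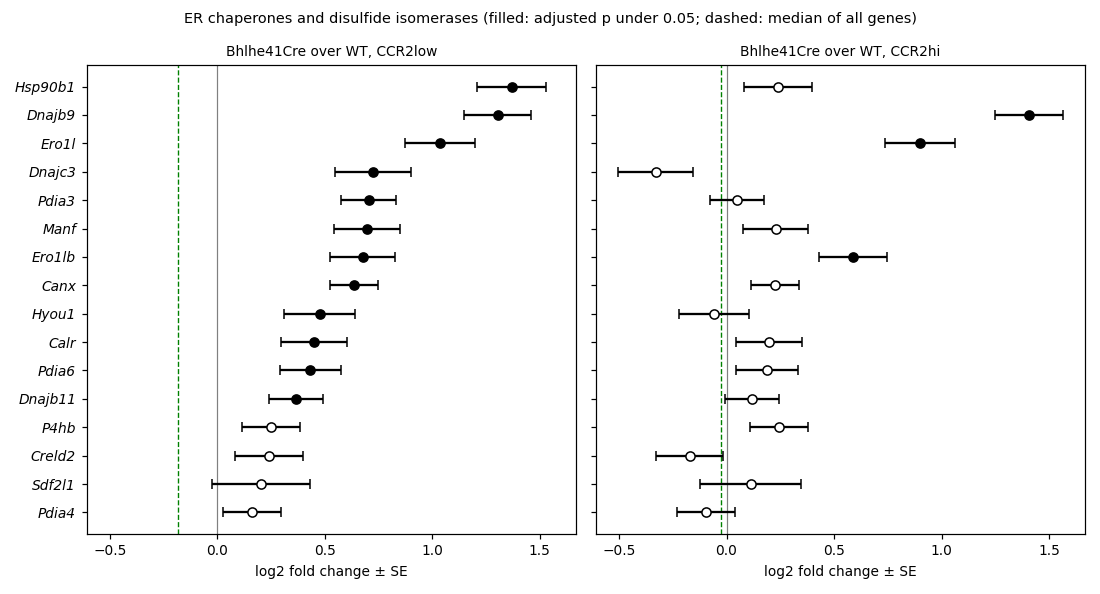
Log2 fold change ± SE of Bhlhe41Cre over WT (x axis) of 16 ER chaperones and disulfide isomerases (y axis, ordered by the CCR2low value); filled points were called and the dashed line is the median of all genes. In CCR2low 12 of 16 were called higher, led by Hsp90b1 at 1.37, against 16.4% of all genes. In CCR2hi 3 of 16 were called higher, with Dnajb9 at 1.41, against 16.2%. Scaled to macrophage genes, 2 were higher in CCR2low and 13 lower in CCR2hi. The medians of all genes in that scaling were -0.09 in CCR2low and -1.26 in CCR2hi. It called 2144 and 11308 of all genes, of which 42.8 and 1.9% were higher.

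The counts of the lists that follow stand against 43% of all genes called between genotypes in CCR2low (16.4% higher, 26.7% lower) and 32.1% in CCR2hi (16.2% higher, 15.9% lower). Between the gates, 54.1% were called in Bhlhe41Cre (24.9% higher, 29.1% lower) and 59.8% in WT (29.8% higher, 30% lower). With 5 to 12 genes a list, many of these counts lie near those shares. They use TMM scaling; scaled to the macrophage genes, their genes were mostly lower in Bhlhe41Cre in CCR2hi (0 higher and 11 lower of 12 synthetases, 0 and 10 of 10 degradation genes, 1 and 5 of 8 transporters) and in CCR2low of each genotype. The median of all genes moved the same way, to -1.26 in CCR2hi, where 11308 genes were called and 1.9% of those were higher. Between the gates that scaling called 13600 genes in Bhlhe41Cre and 14364 in WT, of which 0.5 and 0.7% were higher. The other parts of the unfolded protein response did not move as one. Of 5 UPR sensors and their proteases, Ern1, which encodes the IRE1alpha sensor that splices Xbp1, was higher in Bhlhe41Cre in CCR2low (86.3 ± 32.9 CPM in Bhlhe41Cre and 35.1 ± 1.47 CPM in WT, 1.30 ± 0.24 (SE, adjusted p = 0.00103)) and in CCR2hi (0.75 ± 0.24 (SE, adjusted p = 0.0312)), and Mbtps1, a protease that cleaves ATF6, was lower in both (-0.69 ± 0.11 (SE, adjusted p = 0.000314) in CCR2low and -0.68 ± 0.11 (SE, adjusted p = 0.000401) in CCR2hi). The other 3 were not called in either. Atf6 was higher in CCR2low than in CCR2hi in Bhlhe41Cre (0.77 ± 0.12 (SE, adjusted p = 8.93e-05)) and in WT (0.98 ± 0.12 (SE, adjusted p = 9.40e-06)). Of 10 genes of ER-associated degradation, 7 were higher in CCR2low and 1 lower in Bhlhe41Cre, and 5 higher and 1 lower in WT. Edem1, a lectin of misfolded glycoproteins, was the one with the smallest p in both, at 1.12 in Bhlhe41Cre and 1.31 in WT, and Herpud1 the one that was lower in both, at -0.97 in Bhlhe41Cre and -0.44 in WT. In the genotype comparison, 0 of the 10 were higher and 1 lower in CCR2low (Herpud1 at -0.49 ± 0.12 (SE, adjusted p = 0.00494)), and 1 was higher (Edem1 at 0.45 ± 0.12 (SE, adjusted p = 0.0103)) and 1 lower (Sel1l at -0.75 ± 0.11 (SE, adjusted p = 0.000357)) in CCR2hi. The median of the 10 was -0.08 in CCR2low and -0.002 in CCR2hi.

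Upstream of ATF4, 2 of 6 eIF2alpha kinase and phosphatase genes were higher in Bhlhe41Cre and 0 lower in each gate. Ppp1r15a, GADD34, which directs the dephosphorylation of eIF2alpha, was at 746 ± 63.4 CPM in Bhlhe41Cre and 476 ± 20.7 CPM in WT in CCR2low (0.65 ± 0.15 (SE, adjusted p = 0.00398)) and 708 ± 65.9 CPM in Bhlhe41Cre and 436 ± 85.0 CPM in WT in CCR2hi (0.70 ± 0.15 (SE, adjusted p = 0.00358)). The second gene was Eif2ak2, the kinase PKR, in CCR2low (1.01 ± 0.21 (SE, adjusted p = 0.00227)) and Ppp1r15b in CCR2hi (0.56 ± 0.17 (SE, adjusted p = 0.0220)). Of 8 eIF2 and eIF2B subunit genes, 3 were higher and 1 lower in CCR2low, and 4 higher and 0 lower in CCR2hi. Eif2s1, the subunit that is phosphorylated, was at 108 ± 9.21 CPM in Bhlhe41Cre and 46.0 ± 5.63 CPM in WT in CCR2low (1.23 ± 0.18 (SE, adjusted p = 0.000220)), Eif2s2 at 1.54 ± 0.21 (SE, adjusted p = 0.000152) in CCR2low and 1.03 ± 0.21 (SE, adjusted p = 0.00230) in CCR2hi, and the X-linked Eif2s3x at 0.75 ± 0.13 (SE, adjusted p = 0.00103) in CCR2hi. The interaction value of Eif2s3x was 0.03 (adjusted p = 0.935). The Xist counts above were also higher in Bhlhe41Cre than in WT, and the part of sex in the Eif2s3x difference was not tested. Between the gates Eif2ak1, the heme-sensing kinase, was higher in CCR2low in Bhlhe41Cre (0.60) and in WT (0.71).

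Of 6 partner and stress transcription factors, 1 was higher and 3 lower in Bhlhe41Cre in CCR2low, and 2 higher and 2 lower in CCR2hi. Jdp2 was higher in both, at 0.78 ± 0.20 (SE, adjusted p = 0.00736) in CCR2low and 1.20 ± 0.20 (SE, adjusted p = 0.000706) in CCR2hi. Atf5, itself translated under eIF2alpha phosphorylation, was lower in both, at -0.49 ± 0.14 (SE, adjusted p = 0.0137) in CCR2low and -0.69 ± 0.14 (SE, adjusted p = 0.00215) in CCR2hi. Cebpb was lower in CCR2low (-0.42, adjusted p = 0.0330) and higher in CCR2hi (0.44, 0.0328), and this difference was -0.86 ± 0.21 (SE, adjusted p = 0.0184). Nupr1 was lower in CCR2hi (-0.83 ± 0.16 (SE, adjusted p = 0.00199)).

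Amino acid transport held the largest genotype difference of the pathway genes tested. Slc7a11, the cystine and glutamate exchanger that pairs with Slc3a2, was at 176 ± 65.5 CPM in Bhlhe41Cre and 6.31 ± 0.809 CPM in WT in CCR2low (4.802 ± 0.58 (SE, adjusted p = 0.000106)) and 132 ± 25.4 CPM in Bhlhe41Cre and 7.92 ± 7.84 CPM in WT in CCR2hi (4.05 ± 0.55 (SE, adjusted p = 0.000228)). Of the 8 transporters, 3 were higher and 3 lower in Bhlhe41Cre in CCR2low, and 3 higher and 1 lower in CCR2hi. Slc38a2, a neutral amino acid carrier, was 1.26 ± 0.26 (SE, adjusted p = 0.00221) in CCR2low, and Slc7a5, the other light chain of Slc3a2 named above, 0.91 ± 0.24 (SE, adjusted p = 0.0109) in CCR2hi. Slc1a4 was lower in both gates, at -1.42 in CCR2low and -0.81 in CCR2hi. Between the gates, 0 of 8 were higher in CCR2low and 6 lower in Bhlhe41Cre, and 0 higher and 5 lower in WT, where Slc3a2 itself was higher in both. Slc1a4 was at 2.26 ± 0.708 CPM in Bhlhe41Cre CCR2low and 25.8 ± 2.13 CPM in Bhlhe41Cre CCR2hi, and at 6.10 ± 2.08 CPM in CCR2low of WT and 45.3 ± 5.86 CPM in CCR2hi of WT. The fibroblast share was likewise higher in CCR2hi in both genotypes, and its part in these gate differences was not tested.

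Of 11 enzymes of serine, one-carbon and proline synthesis, 1 was higher and 7 were lower in CCR2low than in CCR2hi in Bhlhe41Cre. Of all genes 24.9% were higher and 29.1% lower there. In WT 3 of the 11 were higher and 4 lower, near the 29.8% higher and 30% lower of all genes. The gate effects differed between genotypes by the interaction test for 1 of the 11, Cth, against 12.6% of all genes. Phgdh, the first enzyme of serine synthesis and thus the step before Psat1, was at 3.83 ± 0.658 CPM in Bhlhe41Cre CCR2low and 28.3 ± 3.74 CPM in Bhlhe41Cre CCR2hi and at 6.38 ± 1.38 CPM in CCR2low of WT and 32.0 ± 8.14 CPM in CCR2hi of WT, log2 -2.88 in Bhlhe41Cre and -2.33 in WT. Pycr1, the last enzyme of proline synthesis, differed by -3.53 ± 0.27 (SE, adjusted p = 3.08e-07) in Bhlhe41Cre and -2.89 ± 0.25 (SE, adjusted p = 5.35e-07) in WT. Gpt2 went the other way, at 2.01 ± 0.21 (SE, adjusted p = 3.64e-06) in Bhlhe41Cre and 1.66 ± 0.21 (SE, adjusted p = 1.33e-05) in WT. Between genotypes, 1 was higher and 3 lower in CCR2low, and 4 higher and 0 lower in CCR2hi. Mthfd2, the mitochondrial one-carbon enzyme, was higher in both, at 0.64 ± 0.20 (SE, adjusted p = 0.0223) in CCR2low and 0.82 ± 0.20 (SE, adjusted p = 0.00798) in CCR2hi. Of 12 aminoacyl-tRNA synthetases, 1 was higher (Eprs at 0.92) and 3 lower (among them Wars at -0.72) in Bhlhe41Cre in CCR2low, and 2 higher (Nars at 0.62 and Tars at 0.37) and 0 lower in CCR2hi.

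Of 9 further ATF4 targets, 0 were higher and 3 lower in Bhlhe41Cre in CCR2low, and 2 higher and 2 lower in CCR2hi. Gdf15, a secreted stress cytokine, was the target with the largest gate difference in the direction of Slc3a2, at 466 ± 13.9 CPM in Bhlhe41Cre CCR2low and 121 ± 5.48 CPM in Bhlhe41Cre CCR2hi (1.94 ± 0.18 (SE, adjusted p = 1.09e-06)) and 613 ± 81.5 CPM in CCR2low of WT and 43.2 ± 12.6 CPM in CCR2hi of WT (3.83 ± 0.19 (SE, adjusted p = 2.30e-08)). The gate difference was smaller in Bhlhe41Cre, by -1.88 ± 0.25 (SE, adjusted p = 0.00107), and Gdf15 was higher in Bhlhe41Cre than in WT in CCR2hi (1.49 ± 0.18 (SE, adjusted p = 6.25e-05)) and was -0.40 ± 0.17 (SE, adjusted p = 0.0796) in CCR2low. Stc2, a secreted glycoprotein, was lower in Bhlhe41Cre in both gates (-2.01 in CCR2low and -2.29 in CCR2hi). It was also lower in CCR2low than in CCR2hi in Bhlhe41Cre (-3.76) and in WT (-4.04). Ddit4, an mTORC1 inhibitor like Sesn2, was lower in CCR2low in Bhlhe41Cre (-2.33 ± 0.23 (SE, adjusted p = 1.68e-06)) and in WT (-1.53 ± 0.22 (SE, adjusted p = 4.41e-05)), so that in WT it moved against Sesn2.

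Genes whose level followed a member most closely over the 12 libraries were taken by Pearson's r of log2 CPM. Libraries of a group share their treatment and sort, so r describes these libraries and carries no test. For Atf4 they were Itga5 (r = 0.986), Nop56 (0.976), Ptgs2 (0.974) and Crtc2 (0.971). Itga5 was at 523 ± 52.8 CPM in Bhlhe41Cre CCR2low, 602 ± 70.6 CPM in Bhlhe41Cre CCR2hi, 248 ± 14.1 CPM in CCR2low of WT and 273 ± 85.8 CPM in CCR2hi of WT. For Hspa5 they were Stag2 (0.983), Zfp51 (0.972), Rsrc2 (0.968) and Hsp90aa1 (0.961), a cytosolic chaperone at 428 ± 109.6 CPM in Bhlhe41Cre CCR2low, 397 ± 93.5 CPM in Bhlhe41Cre CCR2hi, 65.5 ± 5.80 CPM in CCR2low of WT and 159 ± 42.8 CPM in CCR2hi of WT. For Trib3 they were N4bp3 (0.982), Cav2 (0.981), Cdc42ep2 (0.964) and Klhl4 (0.960), of which N4bp3 was at 17.3 ± 5.59 CPM in Bhlhe41Cre CCR2low, 71.3 ± 7.16 CPM in Bhlhe41Cre CCR2hi, 11.3 ± 1.38 CPM in CCR2low of WT and 27.7 ± 6.62 CPM in CCR2hi of WT. No gene followed Ddit3 as closely: the nearest were Slc29a4 (0.860), AC154636.2 (0.842), Cilp2 (0.841) and Zfp128 (0.827), which had few counts, with Slc29a4 under 1 CPM in every group mean.

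The 10 genes did not move as a single block. Of the 45 pairs of members, 29 had an r above 0 over the 12 libraries, with a median of 0.29 and a range of -0.73 to 0.88. After each group's mean was taken out, 22 of 45 were above 0, with a median of -0.05.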

How the data were processed

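RNA from macrophages sorted by CCR2 was sequenced in 12 libraries, 3 for each of 4 groups. Per the submitters' processing notes, CASAVA 1.8, STAR 2.4.0j and RSEM were used with build mm10; no RSEM version, annotation or strand setting is given in the sources used here. RSEM's expected counts were deposited by the authors as whole numbers (0 values were not whole, so rounding changed none), beside a deposited table of TPM, which the authors' processing had normalized for gene length and depth. Bhlhe41Cre columns carry the name KD in both tables, and gate plus replicate number tie them to samples, a match that the labels do not spell out. Their groups come from sample titles because other label fields are shifted. No column was left without a sample (0).

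Counts of 17.7 to 20.83 M per library (median 19.29 M) were tested in R 4.3.3 with edgeR 4.0.16: TMM, filterByExpr on the groups (14964 of 53801 genes; 27248 had no count), glmQLFit with robust dispersion (8 residual degrees of freedom, biological coefficient of variation 18.9%) and two-sided glmQLFTest in 5 comparisons, with Benjamini-Hochberg adjustment over all genes. The interaction subtracts the WT gate difference from that of Bhlhe41Cre. SE is the log2 fold change over the square root of F. The procedure was also run on simulated counts, with gate means set equal within each genotype but for a small set of genes in WT. Such counts lack the wide differences between the gates found here, so that run does not bear on the calls. The 24 alternatives were DESeq2 1.42.0 and its size factors, library size alone, scaling to 17 macrophage genes, limma 3.58.1 on log2(TPM + 1) and log2(TPM + 0.1), no filter, only the groups compared, a 1.5-fold minimum, 2 replicate blocks, each library left out and both Bhlhe41Cre libraries numbered 3 left out. p values measure the spread between libraries, which the labels do not tie to separate animals.

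Between the Bhlhe41Cre gates, residuals of same-numbered libraries correlated (r = 0.23, 0.12 and 0.40), so a block for the replicate number is given where it changes a call. The members and lists were chosen with earlier results of these data known. Named genes were the 10 members, up to 2 called genes per list, direction and comparison by smallest p, 4 genes most like each of Atf4, Ddit3, Trib3 and Hspa5 (log2 CPM, prior count 2), and markers. Promoters are RefSeq's (GRCm38.p6) and positions from GENCODE M21 (GRCm38), in which 99.82% of identifiers were found.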

Additional observations from a re-analysis of the deposited data

Results flagged for a closer look

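The CCR2low minus CCR2hi difference differed between Bhlhe41Cre and WT, by the interaction test of edgeR, for 3 of the 10 genes. For Sesn2 the test gave -1.14 on the log2 scale (adjusted p = 0.00458), for Hspa5 0.81 (0.0325) and for Asns -0.64 (0.0470). With TMM scaling, Sesn2 was lower in CCR2low than in CCR2hi in Bhlhe41Cre and higher in WT, in all 3 libraries against all 3 in each genotype. The WT gate call of Sesn2 was lost in 7 of 24 alternatives and turned in sign in 1 more. With limma on log2(TPM + 1) this WT value was 0.14 (adjusted p = 0.476). Hspa5 was lower in CCR2low in WT. Asns was lower in CCR2low in both genotypes. Of all genes, 12.6% were called in this test. The Asns call was lost in 20 of 23 alternatives and turned in sign in 1 more, the scaling to macrophage genes, and the Sesn2 value turned in that scaling too (0.15). There were 8 of 23 losses for Hspa5.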

How the results depend on the processing

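Of the 26 calls made on the 10 genes, 11 held in all alternatives other than the scaling to macrophage genes, and 6 in that as well. That scaling changed most. It gave 10 called members, 0 of them higher, in each gate comparison, 1 in the genotype comparison of CCR2low, 4 in that of CCR2hi and 2 for the interaction, with the medians of all genes at -3.34 (WT gates), -2.02 (Bhlhe41Cre gates), -0.09 (CCR2low), -1.26 (CCR2hi) and 1.15 (interaction). The signs that turned were, between the WT gates, Psat1 at -2.96, Sesn2 at -2.80 and Slc3a2 at -2.25, and between the Bhlhe41Cre gates Psat1 at -1.79, Slc3a2 at -1.29 and Hspa5 at -1.83. For Bhlhe41Cre over WT they were Sesn2 at 0.016 in CCR2low and, in CCR2hi, Atf4 at -0.17, Trib3 at -0.29, Asns at -0.55, Psat1 at -0.67, Sesn2 at -0.14, Slc3a2 at -0.31 and Hspa5 at -0.83. For the interaction they were Atf4 at 1.23, Trib3 at 0.83, Asns at 0.71, Psat1 at 1.17, Sesn2 at 0.15, Slc3a2 at 0.96 and Xbp1 at 1.15. It called 14364, 13600, 2144, 11308 and 6130 of all genes, of which 0.7, 0.5, 42.8, 1.9 and 98.3% were higher, against 8949, 8094, 6441, 4808 and 1884 with TMM, of which 49.8, 46.1, 38, 50.4 and 37.7% were higher. Other moves of the higher share by over 10 points were as follows. Between the WT gates it was 31.0 and 31.2% with limma on TPM plus 1 and plus 0.1, 38.7% without WT CCR2hi replicate 1 and 37.8% without any 1 Bhlhe41Cre CCR2hi library. Between the Bhlhe41Cre gates it was 32.0% with library size only, 30.6 and 29.8% with limma and 34.6% with the 1.5-fold minimum. In CCR2low it was 52.4% with no filter, 54.2% with only the groups compared, and 52.0 to 56.8% without WT CCR2low replicate 1, WT CCR2hi replicate 1, Bhlhe41Cre CCR2low replicate 3 or any 1 Bhlhe41Cre CCR2hi library. In CCR2hi it was 61.8% with library size only and 34.4 and 37.6% with limma. For the interaction it was 47.8% with DESeq2's size factors, 19.5% with library size only, 26% with limma on TPM plus 0.1, 62.5% with no filter, 27.6% with the 1.5-fold minimum and 28.4 to 68.8% with 1 library left out, where 873 to 2865 genes were called; limma called 1181 and 968.

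A 1.5-fold minimum left 2, 3, 2, 4 and 0 calls in the WT gates, Bhlhe41Cre gates, CCR2low, CCR2hi and interaction, where the null itself is wider; it called 5509, 4928, 2486, 1329 and 478 of all genes. Without any scaling beyond library size, Hspa5 between the Bhlhe41Cre gates was -0.019 and the Ddit3 interaction -0.029. With limma-trend on TPM, Hspa5 between the Bhlhe41Cre gates was -0.014 at either pseudocount (1 or 0.1). With no filter on low counts, Ddit3 was 0.0038 between the Bhlhe41Cre gates, and Ddit3 and Sesn2 0.028 and 0.058 for the genotypes in CCR2low; fitting only the groups compared gave 0.050 and 0.078. None of these was called.

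Leaving out 1 library at a time gave 4 to 7 called members between the WT gates, 5 to 7 between the Bhlhe41Cre gates, 3 to 6 in CCR2low, 6 to 7 in CCR2hi and 1 to 3 for the interaction. Between the WT gates, 3 higher and 3 lower became 2 and 5 without WT CCR2hi replicate 1, where 38.7% of all called genes were higher. Without Bhlhe41Cre CCR2hi replicate 1, 2 or 3 they were 1 and 5, 1 and 4, and 1 and 5, where that share was 37.8%. The uncalled values whose sign turned ranged from -0.21 to 0.11 (Ddit3, Bhlhe41Cre gates), -0.18 to 0.14 and -0.15 to 0.11 (Ddit3 and Sesn2, CCR2low), -0.28 to 0.010 (Ddit3, CCR2hi), and for the interaction -0.12 to 0.39 (Ddit3), -0.23 to 0.066 (Atf4) and -0.22 to 0.049 (Xbp1). TMM moved with the library left out: the median of all genes ran from -0.19 to 0.02 between the WT gates and -0.19 to 0.01 in CCR2low. Leaving out both Bhlhe41Cre libraries numbered 3, chosen after seeing their Y-linked counts, left 1 call for the interaction.

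Same-numbered libraries did not deviate together between the WT gates (r of -0.06, 0.03 and -0.05), between genotypes in CCR2low (-0.21, -0.06 and -0.26) or in CCR2hi (0.10, -0.16 and 0.15). With the replicate block over all groups, 5, 6, 3, 7 and 1 members were called; Psat1 between the WT gates (adjusted p = 0.0566), Xbp1 between genotypes in CCR2low (0.0560) and the interactions of Asns (0.0786) and Hspa5 (0.0524) lost their call. With the replicate block within genotype (WT gates, Bhlhe41Cre gates and interaction) the counts were 6, 6 and 2, and Asns alone lost its call. The block changed no other call. Fitting only the groups compared was not run for the interaction, nor the block within genotype for the genotype comparisons. With a library left out, groups of 2 use the spread pooled over all groups. The cause of these changes was not tested. Chac1, at 14 counts in its lowest library, is the member whose precision depth limits most.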
